A study of Mus musculus with 11 samples.

Results

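A set of 10 genes of the amacrine and horizontal cell program were followed across the 4 genotype groups of the series: Ptf1a, Prdm13, Foxn4, Onecut1, Onecut2, Calb1, Calb2, Gad2, Megf10 and Prox1. They were chosen by name, with AP-2 genes left out. All 10 were present among the 13498 genes of the raw count table and all 10 passed the filter on low counts that left 13292 genes for testing. Total RNA was sequenced from dissected retinas of NMRI mouse embryos at E13.5 (E, embryonic day), in 11 libraries. Every embryo carried Six3 alleles flanked by recombination sites (Six3F/F), and every pregnant dam was injected with tamoxifen (0.15 mL, 20 mg/mL) at E10.5 and again at E11.5. The WT group (3 libraries) had no Cre and intact Six6 alleles, and the Six6KO group (2 libraries) had no Cre and germline null Six6 alleles. The Six3KO group (3 libraries) carried CAGGCre-ERTM, a broadly expressed Cre that tamoxifen activates, with intact Six6 alleles, and the DKO group (3 libraries) carried CAGGCre-ERTM and null Six6 alleles. 1 more Six6KO sample was removed by the submitters for high duplication. Loss of Six3 and presence of Cre cannot be told apart in comparisons of Six3KO or DKO with WT or Six6KO. The series asked what Six3 and Six6 do together in retinal progenitors, the dividing cells from which all retinal neurons arise.

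Amacrine and horizontal cells are the interneurons of the retina, amacrine cells in the inner layers and horizontal cells beside the photoreceptors. Both are born early and arise from progenitors that express the forkhead factor Foxn4. Foxn4 acts upstream of the basic helix-loop-helix factor Ptf1a, which postmitotic precursors of both cell types need, and Ptf1a in turn activates Prdm13, a zinc finger factor of amacrine cells. Onecut1 and Onecut2, cut-homeodomain factors, act beside Ptf1a in horizontal cell genesis. Calbindin (Calb1), calretinin (Calb2), the GABA-synthesizing enzyme Gad2 and the cell-spacing receptor Megf10 belong to the differentiating cells.

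The libraries held 7807744 to 16403191 reads in genes. Levels are given as CPM, the read count normalised to library size after TMM scaling. Six3 ran from 164 to 299 CPM in WT and from 30.3 to 98.2 CPM in the libraries with Cre. Six6 ran from 225 to 340 CPM in WT and from 52.8 to 131 CPM in the libraries with null Six6 alleles. No library went against its label. All 14 retinal progenitor genes of the marker list were detected in every group, with summed levels of 6299 to 9227 CPM in WT and 4230 to 5943 CPM in DKO. Tissues that border the retina were present in uneven amounts. Summed lens genes (15 tested) reached 21692 and 17490 CPM in Six3KO libraries rh012 and rh026 and 9465 CPM in Six6KO library rh020, against 28.1 to 1340 CPM in WT and 8.56 to 165 CPM in DKO. Summed periocular mesenchyme genes (14 tested) ran from 399 to 2111 CPM in WT, 408 to 4015 CPM in Six3KO and 1690 to 2420 CPM in Six6KO, but from 55.8 to 131 CPM in DKO, and none of the lens or mesenchyme genes tested was at 0 reads throughout a group. In whole tissue, fewer cells of a type and less RNA per cell cannot be told apart.

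One of the 10 genes, Calb1, rose in the double mutant and none fell by the test across all genes. The test was edgeR's quasi-likelihood test with Benjamini-Hochberg adjustment over 13292 genes, and genes with an adjusted p under 0.05 were called. In DKO against WT it called 1.29% of all genes (0.655% higher and 0.639% lower), against 1 of the 10 members. By an unadjusted p under 0.05, 7 of the 10 passed, 1 higher and 6 lower, where 13.0% of all genes did (5.47% higher and 7.53% lower). The same 7 genes (Ptf1a, Prdm13, Calb1, Calb2, Gad2, Megf10 and Prox1) were those whose DKO and WT libraries did not overlap, against 17.5% of all genes (9.03% higher and 8.46% lower). DESeq2, the tool the design text names, called 6 of the 10 (Ptf1a, Prdm13, Calb1, Calb2, Gad2 and Megf10), where it called 5.73% of all genes. The median log2 fold change of the 10 was -1.40, and that of all genes tested was -0.0036. These genes were picked with earlier results of the same libraries known, so the counts describe them and do not set them apart from other genes.

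**Figure D1:**
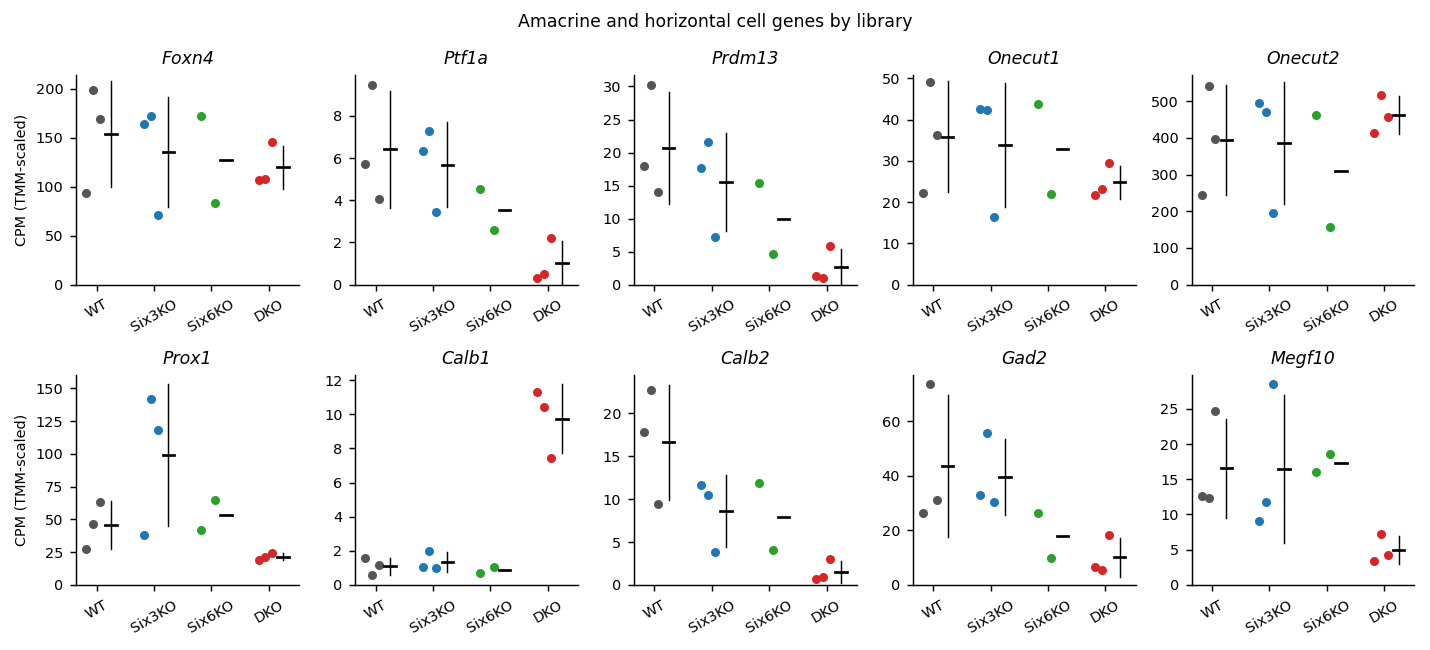
CPM (vertical axes, TMM-scaled) of the 10 genes for every library (points, by group), with black bars for the mean of a group and its SD where it has 3 libraries. The DKO libraries lie at 7.45 to 11.3 CPM for Calb1, where all other libraries lie at 2.02 CPM or less, and at 0.328 to 2.22 CPM for Ptf1a, where all other libraries lie at 2.57 CPM or more.

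Foxn4 (on chromosome 5, 114254164 to 114273807, minus strand, GRCm38), the earliest factor among the 10, stood within the WT range in the double mutant. It lay at 93.4, 198 and 169 CPM in WT libraries rh016, rh023 and rh024, and at 106, 108 and 145 CPM in DKO libraries rh010, rh011 and rh021. The Six3KO libraries rh006, rh012 and rh026 held 164, 172 and 70.7 CPM, and Six6KO libraries rh007 and rh020 held 172 and 83.1 CPM. All groups overlapped, and the lowest library of all was Six3KO rh026. The log2 fold change in DKO against WT was -0.36 ± 0.40 (standard error), with a 95% interval of -1.25 to 0.54 (edgeR adjusted p = 0.826). With the mesenchyme score (described with Megf10) as a covariate it was -1.04 (unadjusted p = 0.0412, adjusted p = 0.288 by edgeR). Every DKO library had a lower mesenchyme score (-3.73 to -2.53) than any other library (-2.23 or more). Values with this covariate, here and below, therefore extrapolate and cannot separate genotype from mesenchyme content. Rorb (on chromosome 19, named here after its values were seen), the orphan nuclear receptor that acts with Foxn4 upstream of Ptf1a, stood at 1089, 1142 and 1373 CPM in DKO and 798, 1524 and 1057 CPM in WT.

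Onecut1 and Onecut2 likewise overlapped between DKO and WT. Onecut1 stood at 22.1, 49.03 and 36.3 CPM in WT and 21.7, 23.2 and 29.4 CPM in DKO (-0.53 ± 0.41, interval -1.45 to 0.40, edgeR adjusted p = 0.700). Onecut2 stood at 243, 541 and 398 CPM in WT and 414, 516 and 456 CPM in DKO (0.23 ± 0.45, interval -0.79 to 1.25, edgeR adjusted p = 0.927). With the mesenchyme score as a covariate Onecut1 stood at -1.26 (unadjusted p = 0.0169, adjusted p = 0.190 by edgeR) and Onecut2 at -0.44. In both single mutants the 2 genes kept one order of libraries. Six3KO rh026 (16.4 CPM of Onecut1, 195 CPM of Onecut2) and Six6KO rh020 (22.04 and 158 CPM) were lowest within their groups, and the other 3 single mutant libraries lay at 42.3 to 43.7 CPM and 462 to 495 CPM. Those 2 low libraries are also among the 3 with the most lens RNA. The library richest in lens RNA, Six3KO rh012, held 42.3 CPM of Onecut1 and 469 CPM of Onecut2. Pigment epithelium scores (mean log2 CPM relative to WT) were highest of all libraries in rh026 and rh020 (2.23 and 2.21) and lowest in rh012 (-3.31). Rh006 and rh007, at 0.87 and 0.22, lay near rh012 for both genes. WT library rh016, lowest of WT for both genes, had the highest pigment epithelium score of WT (2.00). Rh026 and rh020 also had the lowest retinal progenitor scores (mean log2 CPM relative to WT) of the single mutants, -0.95 and -0.60. Their ganglion cell scores, -0.98 and -0.88, were lowest as well. None of these relations was tested. Exons of Onecut1 (chromosome 9, 74861921 to 74891781, plus strand) share 52.8% of their bases with Gm20649 on the same strand, so part of its reads may belong to either.

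Ptf1a and Prdm13, which follow Foxn4, lay lower in every DKO library than in any WT library. Ptf1a (chromosome 2, 19445663 to 19447501, plus strand) stood at 5.70, 9.48 and 4.08 CPM in WT and at 0.328, 0.497 and 2.22 CPM in DKO, from 187 reads in the 3 WT libraries and 38 in the 3 DKO libraries. Among the DKO libraries rh021 held most of those reads, 28, against 4 in rh010 and 6 in rh011. The Six3KO libraries stood at 6.33, 7.29 and 3.43 CPM, overlapping WT, and the Six6KO libraries at 4.53 and 2.57 CPM. All 3 DKO libraries lay below all 8 others, as happened for 3.57% of all genes. Over the 10 members 5 were separated from the other 8 libraries (Calb1 above, Ptf1a, Calb2, Megf10 and Prox1 below), against 7.77% of all genes. The log2 fold change in DKO against WT was -2.64 ± 0.68, a level 6.24 times lower, and did not pass over all genes (unadjusted p = 0.00314, edgeR adjusted p = 0.111). It was -2.47 ± 0.67 against Six3KO and -1.79 ± 0.73 against Six6KO (edgeR adjusted p = 0.145 and 0.295). Exons of Ptf1a share 40.4% of their bases with Ptf1aos on the other strand, and whether reads were counted by strand is unknown here, so the reads of both genes may be mixed.

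Prdm13 (chromosome 4, 21677480 to 21685963, minus strand) stood at 17.9, 30.3 and 14.02 CPM in WT and 1.31, 0.994 and 5.79 CPM in DKO. Six3KO libraries held 17.7, 21.6 and 7.26 CPM, and Six6KO libraries 15.3 and 4.60 CPM. DKO and WT did not overlap, but DKO library rh021 lay above Six6KO library rh020. The log2 fold change in DKO against WT was -2.93 ± 0.75 (unadjusted p = 0.00322, edgeR adjusted p = 0.111), and it was -2.52 ± 0.74 against Six3KO and -1.87 ± 0.79 against Six6KO. Without DKO library rh021, edgeR called both genes lower in DKO against WT, Ptf1a at -3.92 (adjusted p = 0.0197) and Prdm13 at -4.15 (adjusted p = 0.0347). Without rh010 the values were -2.23 (adjusted p = 0.396) and -2.60 (0.427), and without rh011 they were -2.32 (0.386) and -2.54 (0.369). With the mesenchyme score as a covariate they were -3.33 (adjusted p = 0.0623) and -3.80 (0.0554).

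Ptf1a binds DNA in a complex with an E protein and Rbpj, and the bases before the starts of both genes are shown because both genes lay lower in every DKO library. RefSeq promoter windows (GRCm38.p6) matched 6 of the 10 genes, and Onecut2, Calb1, Calb2 and Megf10 had no entry. Each sequence below is the 250 bases before the annotated start, 5′ to 3′ on the strand of the gene, from chr2:19445413-19445662 (plus strand) for Ptf1a and chr4:21685964-21686213 (minus strand) for Prdm13. Capitals mark TGGGAA, the core bound by Rbpj, or its complement TTCCCA.
Ptf1a: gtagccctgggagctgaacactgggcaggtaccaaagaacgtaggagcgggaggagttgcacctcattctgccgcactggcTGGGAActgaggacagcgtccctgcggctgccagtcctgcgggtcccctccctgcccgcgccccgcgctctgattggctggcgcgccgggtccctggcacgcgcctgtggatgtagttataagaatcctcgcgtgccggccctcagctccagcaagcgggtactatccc
Prdm13: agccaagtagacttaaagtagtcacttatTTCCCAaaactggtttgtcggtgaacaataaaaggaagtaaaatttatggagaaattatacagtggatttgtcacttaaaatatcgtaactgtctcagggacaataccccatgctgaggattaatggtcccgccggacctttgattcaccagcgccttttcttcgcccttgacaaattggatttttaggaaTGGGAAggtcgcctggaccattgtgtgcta
Ptf1a held 1 match, starting 169 bases before the gene, and Prdm13 held 2, starting 221 and 30 bases before it. Either strand of TGGGAA was found in 21.6% of all 32851 windows of this length. The E-box CANNTG, found in 66.2% of windows, had no match in either sequence. TGATAC, a core bound by homeodomains of the family of Six3 (4.64% of windows), and ATCGAT, a core bound by Onecut factors (0.728%), had no match in the windows of the 6 genes. All motifs were searched on both strands, and no match overlapped another motif in these 2 sequences.

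Of 5 partner genes listed, 4 were tested and none passed in DKO against WT by edgeR at an adjusted or at an unadjusted p under 0.05, with 0 by DESeq2 as well. Over all genes the shares were 1.29%, 13.0% and 5.73%, so a count of 0 among 4 genes does not set them apart. Rbpj stood at 0.20 ± 0.17, and the E protein genes Tcf3, Tcf4 and Tcf12 at -0.07 ± 0.14, -0.24 ± 0.20 and -0.12 ± 0.08 on the log2 scale.

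Each gene was also set against the Foxn4 reads of the same library, a ratio that needs no library scaling. Per 1000 Foxn4 reads, Ptf1a had 61.1, 47.8 and 24.2 reads in WT, 38.6, 42.4 and 48.5 in Six3KO, 26.3 and 30.9 in Six6KO, and 3.08, 4.60 and 15.3 in DKO. The single mutant libraries thus lay within the WT range on this scale and the DKO libraries below all others. Prdm13 had 83.02 to 192 reads per 1000 Foxn4 reads in WT, 103 to 125 in Six3KO, 55.3 and 89.1 in Six6KO and 9.20 to 39.9 in DKO, again with no overlap of DKO and the rest. Onecut1 kept almost the same proportion to Foxn4 in all libraries, 203 to 265 reads per 1000, though its DKO libraries (203 to 214.7) all lay just below the WT libraries (215.1 to 247). Onecut2 had 2356 to 2727 reads per 1000 Foxn4 reads in WT and 3141 to 4778 in DKO, again without overlap. The mean log2 difference between DKO and WT was -2.78 for Ptf1a, -3.02 for Prdm13, -0.17 for Onecut1 and 0.60 for Onecut2. An exact 2-sided permutation test over the 6 libraries gave p = 0.1 for each of these 4 genes, the smallest that 3 against 3 libraries allow. The same test gave 0.1 for Calb1, Calb2, Gad2 and Prox1 and 0.2 for Megf10. Since it cannot go below 0.1, no conclusion is drawn from it. The share of all genes without overlap on this scale was not computed.

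**Figure D2:**
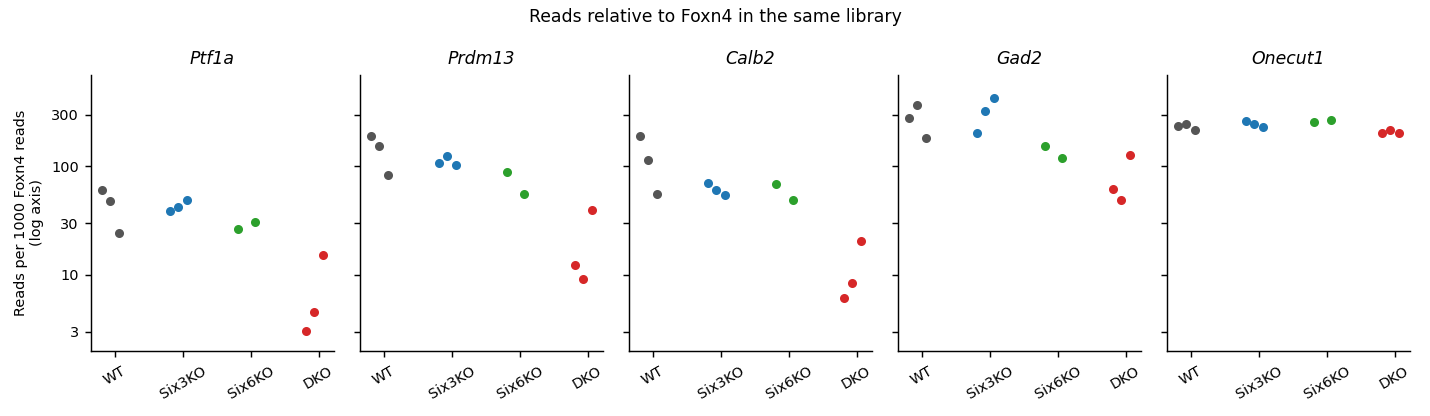
Reads of 5 genes per 1000 Foxn4 reads of the same library (vertical axes, log scale) for the 4 groups (points, 1 per library). Ptf1a lies between 3.08 and 15.3 in DKO and between 24.2 and 61.1 in the other libraries, while Onecut1 lies between 203 and 265 throughout.

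Calbindin and calretinin, calcium-binding proteins of one EF-hand family, went opposite ways in the double mutant. Calb1 (chromosome 4, 15881264 to 15908064, plus strand), a marker of horizontal cells and of some amacrine cells, was close to silent in WT, with 20, 5 and 9 reads (1.56, 0.578 and 1.15 CPM). The DKO libraries rh010, rh011 and rh021 held 138, 126 and 94 reads (11.3, 10.4 and 7.45 CPM). Six3KO libraries lay at 1.03, 2.02 and 1.01 CPM and Six6KO libraries at 0.696 and 1.07 CPM, within or near the WT range. Calb1 rose 8.67 fold in DKO against WT (log2 3.12 ± 0.44, edgeR adjusted p = 0.0146), higher in 3 of 3 libraries. It rose 7.19 fold against Six3KO, where both groups carry Cre (2.85 ± 0.43, edgeR adjusted p = 0.0250), and 10.9 fold against Six6KO (3.44 ± 0.54, edgeR adjusted p = 0.0396). Those comparisons called 0.587% and 0.233% of all genes. The call against WT was lost when WT library rh024 (edgeR adjusted p = 0.0573), DKO rh010 (0.0813) or DKO rh011 (0.0756) was left out and with the mesenchyme score as a covariate (3.04, adjusted p = 0.0597), while the log2 value stayed between 2.82 and 3.49 in all 19 alternatives. The call against Six6KO was lost in 10 of 19 alternatives and that against Six3KO in 7 of 19. Among these was a run that left a single library in each single mutant group.

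Calb2 (chromosome 8, 110137502 to 110168210, minus strand), a marker of amacrine cells that ganglion cells also express, stood at 17.8, 22.7 and 9.43 CPM in WT and at 0.656, 0.911 and 3.01 CPM in DKO. Six3KO libraries held 11.6, 10.46 and 3.83 CPM and Six6KO libraries 11.8 and 4.07 CPM. Every DKO library lay below all 8 others. The log2 fold change in DKO against WT was -3.43 ± 0.71, just short of the threshold (edgeR adjusted p = 0.0534), and the gene was called in 6 of 19 alternatives, DESeq2 among them (adjusted p = 3.09e-05). It was -2.49 ± 0.69 against Six3KO and -2.36 ± 0.74 against Six6KO, with no call by edgeR and calls by DESeq2 (adjusted p = 0.00654 and 0.0346). In each single mutant against WT it stood at -0.94 ± 0.63 and -1.07 ± 0.73 (Six3KO and Six6KO). The libraries held 0.0255 to 0.263 Calb1 reads per Calb2 read in the 8 WT and single mutant libraries, and 17.25, 11.45 and 2.47 in DKO libraries rh010, rh011 and rh021. Of 19 ganglion cell genes tested, edgeR called 1 lower in DKO against WT (0.639% of all genes) and 18 did not pass. By an unadjusted edgeR p under 0.05, 5 of the 19 passed (13.0% of all genes). Of the 19 values 18 lay below 0, with a median of -0.60, and the part of these genes in the Calb2 level was not tested.

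Gad2 (chromosome 2, 22622205 to 22693874, plus strand), one of the enzymes that make the transmitter GABA, stood at 26.3, 73.4 and 31.0 CPM in WT and at 6.64, 5.30 and 18.3 CPM in DKO. Six3KO libraries lay at 32.9, 55.6 and 30.3 CPM and Six6KO libraries at 26.3 and 9.84 CPM. DKO did not overlap WT or Six3KO, but it overlapped Six6KO. The log2 fold change was -2.11 ± 0.60 in DKO against WT (edgeR adjusted p = 0.141), -1.97 ± 0.60 against Six3KO and -0.84 ± 0.65 against Six6KO. With the mesenchyme score as a covariate edgeR called Gad2 lower in DKO against WT (-2.94, adjusted p = 0.0498). Without WT library rh023 the value was -1.50 (adjusted p = 0.265), and without DKO library rh021 it was -2.86 (adjusted p = 0.0685). In Six6KO against WT it was -1.27 ± 0.67 (unadjusted p = 0.0913).

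Megf10 and Prox1 are also expressed outside the neural retina, and their levels are given with markers of the bordering tissues. Megf10 (chromosome 18, 57133090 to 57297467, plus strand), a receptor that spaces starburst amacrine and horizontal cells, stood at 12.6, 12.4 and 24.7 CPM in WT and 3.44, 7.29 and 4.20 CPM in DKO. Six3KO libraries held 9.12, 11.7 and 28.6 CPM and Six6KO libraries 16.0 and 18.6 CPM, so every DKO library lay below all 8 others in CPM. Relative to the Foxn4 reads of the same library, DKO overlapped WT and Six3KO. The log2 fold change in DKO against WT was -1.73 ± 0.48 (edgeR adjusted p = 0.135). With the mesenchyme score as a covariate it was -0.92 ± 0.50 (adjusted p = 0.430). That score, the mean log2 CPM of 14 mesenchyme genes relative to WT, was -3.73, -2.53 and -3.04 in DKO libraries rh010, rh011 and rh021. WT library rh023, at -2.23, and Six3KO library rh012, at -1.88, came closest to them and held 12.4 and 11.7 CPM of Megf10. The part of mesenchyme in its level was not tested further. Summed blood vessel genes (10 tested) also lay lowest in DKO, at 122 to 123 CPM against 192 to 385 CPM in WT.

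Prox1 (chromosome 1, 190118035 to 190170714, minus strand) is a homeodomain factor of horizontal cells and late progenitors that lens fibre cells also express strongly. It stood at 27.04, 46.8 and 63.2 CPM in WT and at 19.1, 21.2 and 24.3 CPM in DKO, below all other libraries. In Six3KO it stood at 38.02 CPM in rh006 and at 141 and 118 CPM in rh012 and rh026, the libraries with the highest lens scores (6.45 and 6.30). Six6KO libraries rh007 and rh020 held 42.2 and 64.7 CPM, with lens scores of -1.34 and 5.20. The 2 libraries with the highest lens scores held the most Prox1, while Six6KO rh020, with the next highest score, lay close to the highest WT library. That library, rh024, also had the highest lens score of WT (2.66), and in WT Prox1 rose in the order of the lens score. The part of lens in the Prox1 level was not tested further. In DKO against WT its log2 fold change was -1.08 ± 0.46 (edgeR adjusted p = 0.359), and -0.62 ± 0.28 with the lens score as a covariate (adjusted p = 0.428). DKO library rh011 and WT library rh023 had similar lens scores (-0.22 and -0.05) and held 21.2 and 46.8 CPM of Prox1. WT library rh016, with a lens score of -2.62, held 27.04 CPM. DKO libraries rh010 and rh021, with scores of -2.51 and -3.09, held 19.1 and 24.3 CPM, a smaller gap. In Six3KO against WT Prox1 stood at 1.12 ± 0.45 (unadjusted p = 0.0342, edgeR adjusted p = 1). Leaving out the 3 lens-rich libraries (rh012, rh026 and rh020) left only rh006 in Six3KO and only rh007 in Six6KO. The Prox1 value in Six3KO against WT was then -0.26, from that single Six3KO library. Against Six3KO the DKO value was -2.20 ± 0.47 (edgeR adjusted p = 0.0775), and -0.81 without the lens-rich libraries, against rh006 alone.

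**Figure D3:**
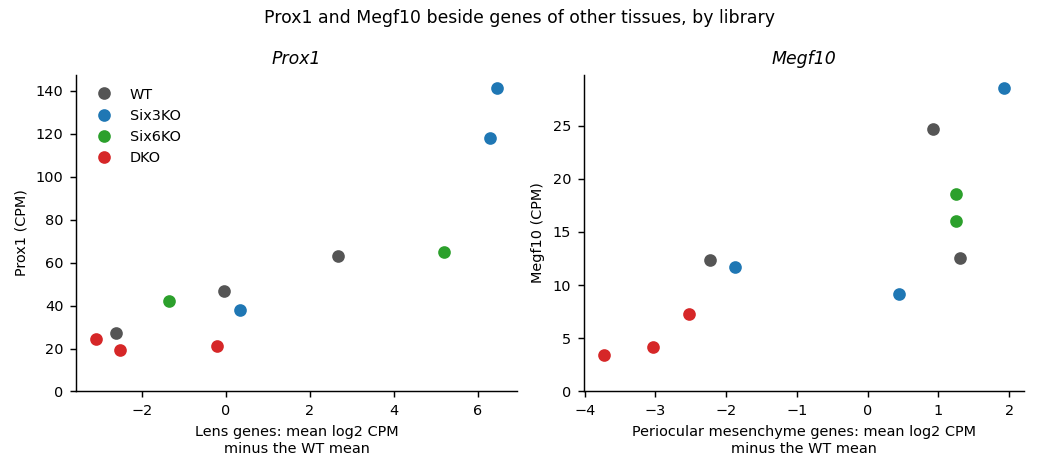
Left, Prox1 (CPM, vertical axis) against the lens score; right, Megf10 (CPM) against the periocular mesenchyme score (horizontal axes, mean log2 CPM of the list minus the WT mean), 1 point per library and colours for the 4 groups. The 2 libraries with lens scores above 6 hold 118 and 141 CPM of Prox1, and the 3 DKO libraries, at mesenchyme scores of -3.73 to -2.53, hold 3.44 to 7.29 CPM of Megf10.

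In the single mutants no member passed. In Six3KO against WT edgeR called 0 of 10, with 1 at an unadjusted p under 0.05 (Prox1) and 0 by DESeq2, where edgeR called 0.00752% of all genes (3.50% by the unadjusted p) and DESeq2 0.152%. The 10 log2 values had a median of -0.11 and ran from -0.94 (Calb2) to 1.12 (Prox1). In Six6KO against WT edgeR called 0 of 10 and 0 of all genes (0%), with 0 members at an unadjusted p under 0.05 (3.90% of all genes) and 0 by DESeq2 (0.0149%). The median there was -0.34, and the lowest values were those of Gad2, Calb2 (-1.07), Prdm13 (-1.06 ± 0.79) and Ptf1a (-0.86 ± 0.72). Their intervals are wide: that of Ptf1a ran from -2.46 to 0.75 in Six6KO and from -1.55 to 1.21 in Six3KO. In neither single mutant did any member's libraries separate from WT, as 6.80% of all genes did in Six3KO and 13.0% in Six6KO. DKO against Six3KO separated 7 of the 10 genes (23.9% of all genes) and DKO against Six6KO separated 5 (35.5%). By the unadjusted edgeR p, 7 passed against Six3KO (13.2% of all genes) and 6 against Six6KO (14.8%), and DESeq2 called 7 (5.77%) and 3 (4.98%). The comparisons with WT share the WT libraries and those with DKO share the DKO libraries, so their values are not independent.

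**Figure D4:**
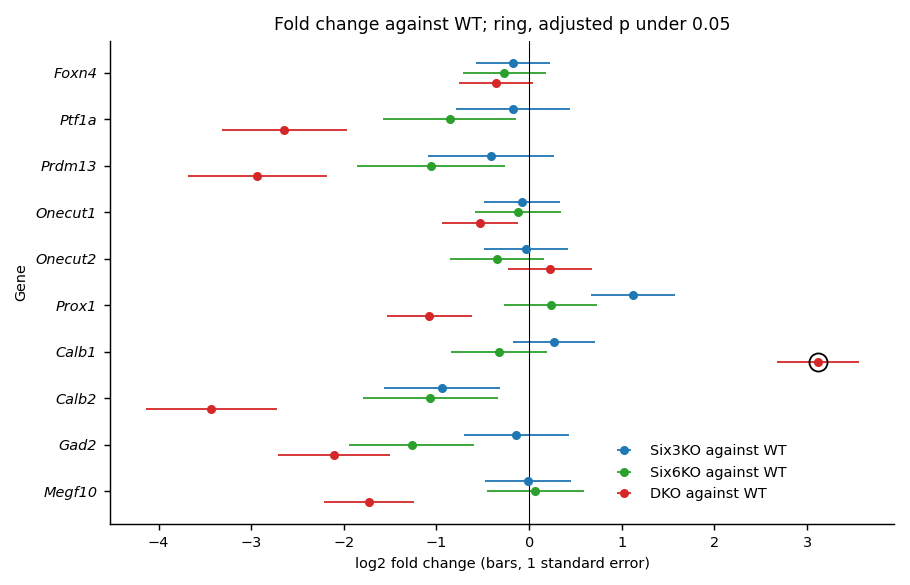
Horizontal axis, log2 fold change relative to WT, with bars of 1 standard error, for the 10 genes (vertical axis) in Six3KO, Six6KO and DKO, with a ring around values with an adjusted p under 0.05. Calb1 in DKO, at 3.12, carries the only ring, while 6 genes lie between -3.43 and -1.08 in DKO and Foxn4, Onecut1 and Onecut2 lie between -0.53 and 0.23.

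Whether DKO departed from the sum of the single effects was tested as an interaction on the log2 scale, DKO minus Six3KO, minus Six6KO, plus WT. By edgeR 0 of 10 members and 0 of all genes (0%) passed after adjustment, 3 members had an unadjusted p under 0.05 (9.99% of all genes) and DESeq2 called 2, Calb1 and Prox1 (1.79%). Calb1 stood at 3.17 ± 0.68 (unadjusted p = 0.000929, edgeR adjusted p = 0.320), Prox1 at -2.43 ± 0.67 (adjusted p = 0.336) and Megf10 at -1.79 ± 0.70 (adjusted p = 0.438). Without the 3 lens-rich libraries the Prox1 value was -0.69, with only rh006 left in Six3KO and only rh007 in Six6KO. Ptf1a stood at -1.61 ± 0.95 and Calb2 at -1.42 ± 0.97, with intervals that include 0.

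The DKO libraries differed among themselves in one order for most members. Library rh021 was highest of the 3 for 7 genes (Ptf1a, Prdm13, Foxn4, Onecut1, Calb2, Gad2 and Prox1) and lowest for Calb1. Library rh010 was lowest for 7 genes and highest for Calb1. Library rh021 also held the most Six3 (98.2 CPM, against 57.3 and 56.2 in rh010 and rh011) and the most Six6 (99.8 CPM, against 56.0 and 52.8). Its retinal progenitor score lay at -0.21, against -0.77 and -0.82, and its ganglion cell score at -0.34, against -0.85 and -0.61. With 3 libraries the relation of these levels was not tested. In WT the members spread widely as well. Library rh023, with the least mesenchyme RNA of that group, was highest for 7 genes, and the SD over the WT libraries was 35.3% to 59.7% of the mean, against a median of 17.8% over all genes.

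Profiles over the 11 libraries were compared between members. The root mean square difference between centred log2 CPM profiles was smallest for Foxn4 and Onecut1 (0.13), followed by Foxn4 and Onecut2 (0.33). Ptf1a and Prdm13 differed by 0.34, as did Prdm13 and Calb2, and Ptf1a and Gad2 differed by 0.49. The largest value was that of Calb1 and Calb2 (2.77). Among tested genes whose mean was 5 CPM or more, those most like Ptf1a were Gal, the precursor of the neuropeptide galanin (0.25), the ubiquitin ligase gene March11 (0.29), the growth factor gene Fgf3 (0.30), Prdm13 (0.34) and Ankrd33b (0.38). Gal stood at 34.7 CPM in WT, 25.9 in Six3KO, 17.5 in Six6KO and 5.32 in DKO (group means). Those most like Calb1 were Pld5 (0.60), Cntnap2 (0.60), Tfap2c (0.63), Filip1 (0.64) and Lmo3 (0.66), all further away. The points of each profile share libraries and depth, and these distances carry no test.

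Compared per length, the members of the WT retina fell in the order Foxn4, Onecut2, Calb2, Onecut1, Gad2, Prox1, Prdm13, Ptf1a, Megf10 and Calb1. Foxn4 stood at 45.6 CPM per kilobase of exons and Onecut2 at 24.3. Calb2, Onecut1 and Gad2 stood at 9.55, 8.71 and 7.41, and Prox1, Prdm13 and Ptf1a at 5.45, 4.84 and 4.26, neighbours that differ by less than their SD. Megf10 stood at 2.15 and Calb1 at 0.226. In DKO the means were 35.6 for Foxn4, 28.5 for Onecut2, 0.673 for Ptf1a, 0.630 for Prdm13, 0.876 for Calb2 and 2.01 for Calb1, so Calb1 stood last in WT and above Ptf1a, Prdm13, Calb2, Gad2 (1.72) and Megf10 (0.645) in DKO.

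Other genes of amacrine and horizontal cells, listed from general knowledge, went both ways. Of 28 listed, 18 were tested and the rest were not analysed here. By edgeR 0 of 18 passed in DKO against WT, with 7 at an unadjusted p under 0.05 (13.0% of all genes), 8 values below 0 and 10 above, and a median of 0.13. The DKO and WT libraries of 5 of them separated upward and of 4 downward, as did those of 9.03% and 8.46% of all genes. Bhlhe22, a factor of amacrine and bipolar cells, stood at 17.4, 25.7 and 16.4 CPM in WT and 61.8, 64.4 and 92.4 CPM in DKO (1.88 ± 0.39, edgeR adjusted p = 0.0553), with a call in 5 of 19 alternatives. Lhx9, a LIM homeodomain gene, had 17 reads in the WT libraries and 205 in DKO (3.19 ± 0.87, adjusted p = 0.127). Neurod4, a proneural factor that promotes amacrine fate, stood at 44.1 to 78.2 CPM in WT and 14.5 to 28.0 CPM in DKO (-1.65 ± 0.46, adjusted p = 0.136). Ebf2 stood at 3.82 to 7.17 CPM in WT and 12.7 ± 0.863 CPM (SD, n = 3) in DKO (1.20 ± 0.35, adjusted p = 0.148).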

How the data were processed

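Libraries were made from total RNA after depletion of ribosomal RNA, per the labels' protocols. The deposited values are raw counts of reads per gene, in 1 table with a column for each library. The submitters' processing notes name Trim Galore 0.3.7, TopHat2 2.0.13, HTSeq 0.6.1, Cufflinks 2.2.1 and Cuffdiff with mm10. Gene annotation, use of strand in counting and choice of listed genes are not given in the sources used. Column names show group and library but no replicate number. The design text calls the samples, pairs of retinas, biological replicates.

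In R 4.3.3, edgeR 4.0.16 kept 13292 genes (filterByExpr, minimum count 10), scaled libraries by TMM and fitted all 11 libraries with a robust quasi-likelihood model of 4 group means. Standard errors are the log2 fold change divided by the square root of F. Alternatives included DESeq2 1.42.0. No replicates were duplicates of each other (chi-square over degrees of freedom 9.85 to 77.9). The fit was also run on simulated counts with the same spread setting for every gene and no admixed tissue. That run does not cover the spread and tissue differences of these libraries. Positions, exon lengths and exon overlaps are from GENCODE vM21 (GRCm38), and promoter windows are from RefSeq. The members and all lists were chosen with earlier results of these data known. Named genes are all members, Six3, Six6, the tested partners of Ptf1a, the other amacrine and horizontal genes called in DKO against WT or among the 4 smallest p, and the 5 genes nearest to Ptf1a and to Calb1 by profile. Rorb was added after the data were seen. The 9 listed forebrain genes were not analysed here.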

Additional observations from a re-analysis of the deposited data

How the results depend on the processing

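The count of members called depended on the tool more than on scaling. In DKO against WT it was 1 by edgeR with all libraries, 2 without the TMM factor, 6 by DESeq2, 2 with the mesenchyme score and 2 with the lens score as a covariate, and 0 to 4 with 1 library left out. DKO against Six3KO gave 1, with 7 by DESeq2, 0 with either covariate and 0 to 2 with 1 library left out. The run without the 3 lens-rich libraries (chosen after seeing the data) left only rh006 in Six3KO and rh007 in Six6KO. Its counts in comparisons with these groups are therefore not given. DKO against Six6KO gave 1, with 3 by DESeq2, 3 from the 2 groups alone, 0 with either covariate and 0 to 1 with 1 library left out. Leaving out a Six6KO library leaves a single library in that group. The departure from the sum gave 0, with 2 by DESeq2. In Six3KO and Six6KO against WT the count was 0 in every alternative run that left at least 2 libraries in each compared group. Of 776 alternative values of single genes, 711 kept direction and side of the threshold, 21 lost a call, 37 gained one and 7 changed sign. The sign changes were Onecut2 in DKO against WT (-0.024 without WT library rh016 and -0.024 to 0.53 over all left-out libraries, -0.44 with the mesenchyme score), Rbpj (-0.10) and Tcf4 (0.13) with the mesenchyme score, Tcf3 (0.011 without WT library rh024, range -0.16 to 0.011), Prox1 in Six3KO against WT (-0.26 without the lens-rich libraries) and Gad2 in DKO against Six6KO (0.034 without Six6KO library rh007, range -1.59 to 0.034). The cause was not tested. Over all genes, DESeq2 called 769 in DKO against WT and edgeR 172, and leaving out 1 library gave 20 to 279. No paired analysis was possible because the columns carry no replicate number. With 4 to 28 Ptf1a reads per DKO library, depth limits its precision there.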

Other observations

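Among the other amacrine and horizontal cell genes, Ebf2 and Neurod4 are given here in the single mutants, where neither passed over all genes. Ebf2, an early B cell factor family gene, stood at 3.82 to 7.17 CPM in WT, 11.52 to 25.1 CPM in Six3KO, 11.3 and 19.1 CPM in Six6KO and 12.7 ± 0.863 CPM (SD, n = 3) in DKO, so all 8 mutant libraries lay above all 3 WT libraries. The share of all genes with such a split was not computed, and Ebf2 was named for its small p in these data. Its log2 fold change against WT was 1.56 ± 0.36 in Six3KO (unadjusted p = 0.00148) and 1.46 ± 0.39 in Six6KO (unadjusted p = 0.00376) (edgeR adjusted p = 1 and 0.991). Its highest values, in Six3KO rh026 and Six6KO rh020, came with 2 of the 3 highest lens scores. The library with the highest lens score, Six3KO rh012 (6.45), held the lowest Ebf2 of its group (11.52 CPM). Mesenchyme scores were 1.93 in rh026 and 1.24 in both Six6KO libraries. The relation of Ebf2 to either score was not tested. Neurod4 stood at 25.2 and 15.1 CPM in Six6KO, beside 14.5 to 28.0 CPM in DKO and 16.9 to 59.5 CPM in Six3KO. The Six3KO libraries overlapped WT (-0.50 ± 0.45, unadjusted p = 0.296, edgeR adjusted p = 1). It lay at -1.60 ± 0.54 in Six6KO against WT (unadjusted p = 0.0149, edgeR adjusted p = 0.991) and at -0.06 ± 0.52 in DKO against Six6KO, with an interval of -1.21 to 1.10.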
